A study of Mus musculus with 34 samples.

Results

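Chromatin accessibility was examined at the genes of the YAP and TAZ pathway in mouse hair follicle stem cells (HFSCs): the coactivator genes Yap1 and Wwtr1, the TEAD factor genes Tead1, Tead2, Tead3 and Tead4, and the pathway targets Ccn1, Ccn2, Amotl2 and Lats2. These 10 genes, of 21738 protein-coding genes, were chosen for a motif. Among regions found in every library of one Rxra genotype under corpses and in no library of the other, the TEAD motif lay in 556 of the 2711 regions (20.5%) of Rxra cKO HFSCs and in 85 of the 1339 regions (6.35%) of Rxra WT HFSCs, and in 10.7% of the other 70570 regions. Those values led to the choice of the genes and stand here as a description with no test. An ATAC-seq peak was counted for a gene when its summit lay in the gene body, up to 50 kb upstream of the start or up to 5 kb downstream of the end in GRCm39. Of 1935055 peaks in 34 libraries, 2421 met this rule, and peaks that shared a base were joined into 254 regions of the 252803 regions of the genome. At the limits of the windows, a Lats2 region seen in 1 library lay 3 bp inside the downstream limit and a Wwtr1 region seen in 16 libraries lay 65 bp inside the upstream limit. Just outside lay an Amotl2 region in 17 libraries, 174 bp past the downstream limit, and upstream regions of Lats2 (348 bp past, 3 libraries) and Yap1 (391 bp past, 20 libraries).

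ATAC-seq marks DNA that a transposase can reach. The study applied it to HFSCs sorted from skin or from culture, to follow how these cells respond to dying neighbours and what the nuclear receptor gene Rxra contributes. In culture, corpses made from mTomato+ HFSCs with cisplatin were given to Rxra cKO HFSCs (Rxra cKO corpses, 3 libraries) and to Rxra WT HFSCs (WT corpses, 4 libraries), and corpses treated with BEL, which blocks the calcium-independent form of phospholipase A2, were given to Rxra WT HFSCs (BEL corpses, 4 libraries). Further cultures of both genotypes received lysophosphatidylcholine and retinoic acid together with arachidonic acid (AA LPC RA, 2 libraries each) or medium alone (2 libraries each). In vivo, HFSCs came from late catagen skin (CatVII) of Rxra cKO mice (3 libraries) and Rxra WT mice (4 libraries), and from CatVII (6 libraries) and late anagen skin (AnaVI, 2 libraries) of wild type mice. The cultured lines were Rxra fl/fl (cKO) or Rxra +/+ (WT) on a shared Sox9-creER+; R26-YFP fl/fl background, so both carried the Cre and were derived from second telogen skin and grown on fibroblast feeders, both were exposed to 4-hydroxytamoxifen, and both were sorted for YFP. In the cKO mice both Rxra alleles were floxed (fl/fl), with Sox9-creER+ and 1 R26-YFP allele (fl/+). Deletion was therefore limited to cells in which the Sox9-driven Cre had acted. For these libraries the controls (Rxra WT) were Rxra +/+ with the same Cre and reporter, both genotypes were sorted for YFP and Itga6 in place of CD34, and the mice received tamoxifen. Wild type HFSCs were sorted for high CD34 and Itga6. In vivo and cultured libraries were barcoded in separate batches, so that culture and batch cannot be told apart. The peak names stored with the lists carry the tags Phago and NonPhago with numbers that repeat between the tags, and tags P33 (AnaVI), P37 (all CatVII wild type and 3 CatVII Rxra WT libraries) and P42 (the other CatVII Rxra libraries). Separate animals or cultures behind each number were not stated for all groups, and p-values then measure only the spread between these libraries.

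The lists were of very unequal length, with 63855 to 129876 peaks in the 11 corpse cultures, 41473 to 109886 in the 7 CatVII Rxra libraries, 8311 to 52455 in the 8 wild type in vivo libraries and only 4144 to 5740 in the 4 medium libraries. The number of member regions found per library followed this, at 78 to 115 in corpse cultures, 53 to 155 in CatVII Rxra libraries, 10 to 72 in wild type in vivo libraries and 2 to 7 in medium. Start regions of the 10 HFSC and basal keratinocyte marker genes checked (Krt5, Krt14, Krt15, Sox9, Lhx2, Cd34, Itga6, Nfatc1, Tcf7l1 and Trp63) had peaks for 7 to 9 genes in corpse cultures, 9 to 10 in CatVII Rxra libraries, 1 to 9 in wild type in vivo libraries and 0 to 2 in medium. The Cd34 start had no peak in any cultured library. Among the other cell types checked, the starts of Ptprc, Spi1 and Cd3e (immune), Col3a1 and Lum (fibroblast) and Tyr (melanocyte) had no peak in any library. Others did: Col1a1 and Pdgfra (fibroblast), Csf1r (immune), Pecam1 (endothelial) and Mitf and Pmel (melanocyte) in every corpse culture, and Laptm5 (immune) in 2 of 3 Rxra cKO, 4 of 4 BEL and 4 of 4 WT corpse cultures. Melanocyte starts numbered 3 of 5 in Rxra cKO corpses and 2 to 3 in BEL and WT corpses, against 3 to 4 in CatVII Rxra cKO and 3 in CatVII Rxra WT. The part of these cells in the results was not tested.

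YAP and its paralogue TAZ are transcriptional coactivators that cannot bind DNA themselves and act mainly through TEAD factors, often at enhancers that also hold AP-1 sites. The Hippo kinases, among them LATS2, phosphorylate YAP and TAZ and keep them in the cytoplasm, while low cell crowding, a stiff substrate and wounding let them enter the nucleus. In skin the pathway is known for supporting the basal cells of the epidermis and of the hair follicle during growth and repair.

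Of the 254 regions, 22 (8.66%) held a TEAD motif (ACATTCC or GCATTCC, either strand) within 100 bases of the summit, against 8.59% of all regions, and 46 (18.1%) held an AP-1 motif (TGACTCA, which reads TGAGTCA on the other strand), against 19.6%. A RUNX motif (TGTGGTT or TGCGGTT) was found in 18 (7.09%, against 7.99%), and RXR direct repeats in none, against 0.267%. Tead1 had the TEAD motif in 10 of 52 regions (19.2%), and Yap1, Tead2 and Tead3 in 0 of 35, 0 of 11 and 0 of 22. The following 5 sequences are shown because they are the accessible member regions with a TEAD motif that the results return to most: the part of the Ccn1 promoter peak upstream of the first exon (the gene lies on the minus strand), a distal Ccn2 region and a distal Amotl2 region found mainly in culture, and strong intronic regions of Tead1 and Tead4. TEAD and AP-1 motifs are in capitals, each name gives the distance of the best-ranked summit from the start of the gene, and all sequences are GRCm39 reference.

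Ccn1 +0 kb, chr3:145355739-145355890, plus strand: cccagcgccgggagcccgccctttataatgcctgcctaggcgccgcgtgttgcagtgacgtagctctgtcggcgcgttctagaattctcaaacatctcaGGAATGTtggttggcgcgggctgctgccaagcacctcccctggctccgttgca
Ccn2 -14 kb, chr10:24457095-24457295, plus strand: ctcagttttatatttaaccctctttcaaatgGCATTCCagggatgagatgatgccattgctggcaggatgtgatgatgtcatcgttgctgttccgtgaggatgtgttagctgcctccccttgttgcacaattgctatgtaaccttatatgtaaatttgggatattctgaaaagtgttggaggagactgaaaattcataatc
Amotl2 -44 kb, chr9:102550638-102550838, plus strand: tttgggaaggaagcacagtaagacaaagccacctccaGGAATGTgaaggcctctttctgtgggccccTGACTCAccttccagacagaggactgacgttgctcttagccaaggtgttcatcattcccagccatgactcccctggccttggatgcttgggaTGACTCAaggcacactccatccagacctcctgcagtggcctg
Tead1 +41 kb, chr7:112319391-112319591, plus strand: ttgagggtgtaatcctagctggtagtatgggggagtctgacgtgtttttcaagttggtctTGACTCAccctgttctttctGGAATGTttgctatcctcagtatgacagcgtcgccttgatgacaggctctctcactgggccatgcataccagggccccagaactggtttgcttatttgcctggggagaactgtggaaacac
Tead4 +18 kb, chr6:128259218-128259418, plus strand: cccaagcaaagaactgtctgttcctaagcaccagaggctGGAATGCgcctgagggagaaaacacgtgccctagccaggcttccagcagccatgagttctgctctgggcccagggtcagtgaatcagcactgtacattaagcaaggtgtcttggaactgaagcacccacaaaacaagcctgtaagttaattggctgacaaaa

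In the Tead1 sequence the TEAD and AP-1 motifs lay 17 and 37 bases before the summit, and in the Amotl2 sequence the TEAD motif lay 60 bases before it with an AP-1 motif on either side of the summit. The next pair of regions, in the first part of Tead4 and deep in Wwtr1, also holds the TEAD motif (in capitals) but was found mainly in vivo.

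Tead4 +4 kb, chr6:128273289-128273489, plus strand: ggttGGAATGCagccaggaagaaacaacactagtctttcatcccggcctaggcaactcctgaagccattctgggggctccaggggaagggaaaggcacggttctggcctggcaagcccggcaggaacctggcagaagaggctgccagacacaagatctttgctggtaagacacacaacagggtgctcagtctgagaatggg
Wwtr1 +107 kb, chr3:57375952-57376152, plus strand: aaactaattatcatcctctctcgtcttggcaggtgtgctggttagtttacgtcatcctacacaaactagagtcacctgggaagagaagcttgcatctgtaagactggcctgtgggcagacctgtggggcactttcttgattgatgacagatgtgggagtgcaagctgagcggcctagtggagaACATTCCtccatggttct

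The last pair, in an intron of Yap1 and upstream of Ccn1, was found almost only in culture and holds AP-1 motifs (in capitals) with no TEAD motif in the window.

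Yap1 +31 kb, chr9:7973196-7973396, plus strand: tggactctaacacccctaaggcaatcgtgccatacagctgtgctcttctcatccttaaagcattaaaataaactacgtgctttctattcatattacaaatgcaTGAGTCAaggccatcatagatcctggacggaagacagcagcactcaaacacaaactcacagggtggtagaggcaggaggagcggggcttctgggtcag
Ccn1 -17 kb, chr3:145372168-145372368, plus strand: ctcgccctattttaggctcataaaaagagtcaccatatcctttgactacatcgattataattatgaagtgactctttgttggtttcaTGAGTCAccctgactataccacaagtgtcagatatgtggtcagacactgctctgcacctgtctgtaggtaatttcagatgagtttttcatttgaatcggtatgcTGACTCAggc

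Across all called peaks, the member regions were somewhat more widely shared than the genome's regions: 95 (37.4%) were found in at least 10 libraries, against 28.5% of all regions, and 45 (17.7%) in at least 20, against 10.1%. Only 25 (9.84%, against 8.14%) lay within 1 kb of an annotated start. Tead1 had the most regions (52 in a window of 282 kb), followed by Wwtr1 (38), Yap1 (35), Tead4 (30), Tead3 (22), Ccn1 (19), Lats2 (18), Ccn2 (15), Amotl2 (14) and Tead2 (11). Per 100 kb the order was different, with 32.7 regions at Ccn1 and 29.7 at Tead3 at the top and 14.5 at Lats2 and 15.1 at Tead2 at the bottom, around 21.6 for the 10 genes together.

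**Figure D1:**
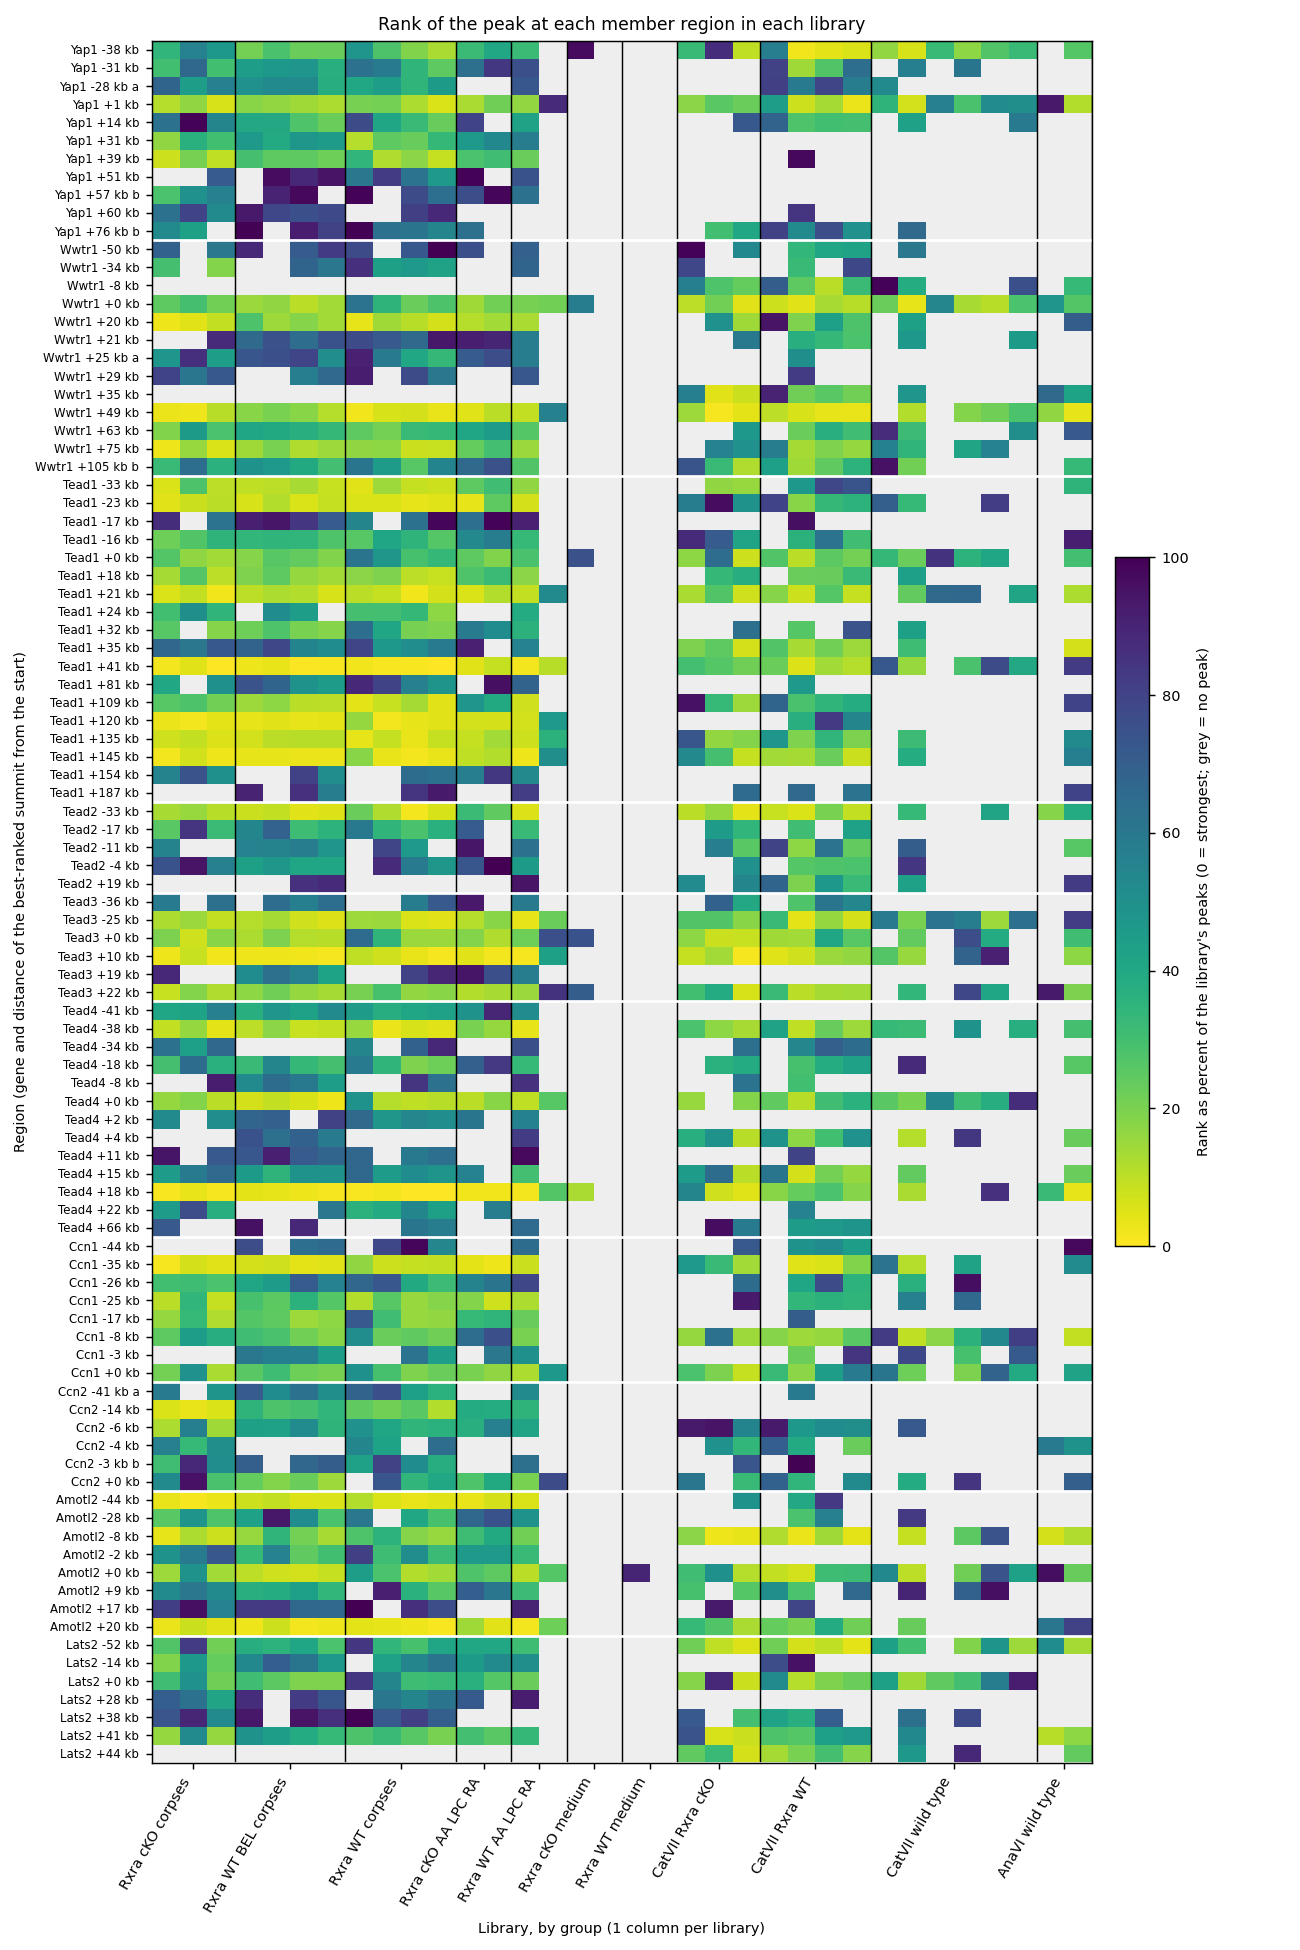
Rank of the peak at each member region found in 10 or more libraries (rows, named by gene and distance from the start in kb) in each of the 34 libraries (columns, grouped by cell state), as percent of the library's peaks, with 0 the strongest and grey where no peak was called. Corpse cultures fill nearly all of the 95 rows, the 4 medium columns are almost empty, and rows such as Ccn2 -14 kb, Yap1 +31 kb and Wwtr1 +35 kb are filled on one side of the boundary between culture and skin.

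Yap1 encodes YAP. Its start region (chr9:8003138-8005064, from 403 bp upstream to 1523 bp downstream of the start) was open in 30 of 34 libraries, that is in all but the 4 medium libraries. Fold enrichment over local background at the summit, the peak caller's measure of height, was 14.1, 11.7 and 15.8 in Rxra cKO corpses, 10.1, 9.94, 10.6 and 10.5 in BEL corpses and 9.97, 11.1, 13.1 and 19 in WT corpses. In skin it had 10.1, 9.10 and 9.26 in CatVII Rxra cKO and 6.96, 9.60, 7.53 and 11.8 in CatVII Rxra WT. WT corpses overlapped with each of the other groups, and the Rxra cKO corpse values lay above those of BEL corpses and of CatVII Rxra cKO. These are fold enrichments as listed, with no common scale between libraries.

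Within the gene, 2 intronic regions separated culture from skin. Yap1 +31 kb (chr9:7972770-7973740) had fold enrichments of 14.9, 9.29 and 10.5 in Rxra cKO corpses, 9.09, 10.4, 9.95 and 9.82 in BEL corpses, 12.3, 11.9, 15.5 and 12.3 in WT corpses and 8.12 and 7.41 in Rxra cKO AA LPC RA. Rxra WT AA LPC RA replicate 1 had 7.82 there, and replicate 3, whose list held only 12989 peaks, had no peak. None of the 15 in vivo libraries had a peak at Yap1 +31 kb. Yap1 +39 kb (chr9:7965490-7966303) reached 18.5, 11.6 and 17.4 in Rxra cKO corpses, 13.5, 13.5, 14.7 and 15.1 in BEL corpses and 8.14, 15.3, 16.7 and 21.7 in WT corpses. It had a peak in 1 in vivo library, a CatVII Rxra WT library with 3.19. Both regions were thus found in all 11 corpse cultures whatever the genotype or the BEL treatment. Yap1 +14 kb had peaks in all 4 CatVII Rxra WT libraries (5.60, 10.01, 7.82 and 8.22) and in 1 of 3 CatVII Rxra cKO libraries (4.57). Upstream, Yap1 -31 kb, in an intron of the neighbouring gene Cfap300, was open in all 4 CatVII Rxra WT libraries (4.98, 15.5, 8.30 and 5.48) and in no CatVII Rxra cKO library, while all 3 Rxra cKO corpse cultures had it (10.8, 6.37 and 10.6). Among wild type skin libraries, CatVII replicates 2 and 4 had it (5.07 and 4.79), and the other CatVII libraries and both AnaVI libraries did not. The genotype split was not tested, and Yap1 -31 kb was not called specific in the lists of equal length compared below. The region of the Yap1 window away from the Yap1 start with most libraries, Yap1 -38 kb (29 libraries), is itself the promoter of Cfap300. Away from any promoter, Yap1 -31 kb and Yap1 +14 kb were the most widely found, in 20 libraries each.

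Wwtr1 encodes TAZ. The Wwtr1 start region (chr3:57482212-57484287) was the most widely open of the 10 start regions, in 31 libraries including 1 medium library. It had fold enrichments of 9.56, 9.12 and 10.2 in Rxra cKO corpses, 11.3, 10.7, 13.1 and 11.3 in BEL corpses and 5.93, 8.60, 10.1 and 10.8 in WT corpses. In vivo the values were 11.2, 9.41 and 16.1 in CatVII Rxra cKO and 14, 10.7, 7.44 and 9.02 in CatVII Rxra WT, so culture and skin overlapped. The intronic region Wwtr1 +49 kb was open in 28 libraries.

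Several Wwtr1 regions were seen in skin and not in culture. Wwtr1 +35 kb (chr3:57447923-57448479, intron) had fold enrichments of 5.84, 15.3 and 18.4 in CatVII Rxra cKO and 4.36, 11.1, 8.19 and 8.67 in CatVII Rxra WT, was found in both AnaVI libraries (4.57 and 7.09), and had no peak in any of the 19 cultured libraries. Wwtr1 -8 kb (chr3:57490977-57491757, intergenic) behaved likewise, with 5.84, 8.76 and 11.1 in CatVII Rxra cKO and 5.44, 9.98, 11.4 and 7.80 in CatVII Rxra WT. Together with Wwtr1 +23 kb and the TEAD motif region Wwtr1 +107 kb printed above, 4 of the 15 Wwtr1 regions found in 8 or more of the 26 corpse and in vivo libraries (26.7%) were open in at least 8 of 15 in vivo libraries and in no corpse culture. The same held for 4.6% of all 78230 such regions of the genome, and for 5 of 104 member regions (4.81%), the fifth being Lats2 +44 kb. In the other direction, Wwtr1 +20 kb (intron, with an AP-1 motif) was open in all 11 corpse cultures at 10.3 to 19.5 and in 2 of 3 CatVII Rxra cKO libraries (6.79 and 14.9) and all 4 CatVII Rxra WT libraries at 4.11 to 6.79.

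Among the TEAD genes, which encode the DNA-binding partners of YAP and TAZ, Tead1 had several strong intronic sites. Tead1 +41 kb (chr7:112319217-112320326, intron), with its TEAD and AP-1 motifs printed above, was open in 28 libraries and reached 20.2, 14.8 and 24.9 in Rxra cKO corpses, 15.2, 14.4, 18.6 and 16.8 in BEL corpses and 16, 21.4, 21.7 and 26.6 in WT corpses. The skin libraries had 7.71, 9 and 10.5 in CatVII Rxra cKO and 9.66, 15, 9.42 and 10.6 in CatVII Rxra WT. Tead1 +120 kb (intron, with an AP-1 motif) reached 21.5, 18.5 and 20.4 in Rxra cKO corpses, 19.2, 18.2, 19.6 and 19 in BEL corpses and 11, 20.6, 20.8 and 22 in WT corpses. It had no peak in CatVII Rxra cKO and peaks in 3 of 4 CatVII Rxra WT libraries (10.9, 4.40 and 6.31). Both were strong in culture, and the second was lower or not found in skin. The Tead1 start region was open in 28 libraries and did not separate culture from skin.

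Tead2, which is best known from early development, had the start region found in the fewest libraries of the 10 genes. It had a peak in 7 libraries, at 5.51 and 7.52 in 2 CatVII Rxra cKO libraries, 4.85 in 1 CatVII Rxra WT library, 5.35 in 1 Rxra cKO corpse culture, 3.89 and 3.03 in 2 BEL corpse cultures and 3.40 in 1 Rxra cKO AA LPC RA culture. The Tead2 window mostly holds other genes' elements: Tead2 -33 kb (25 libraries) lies in an intron of Kash5, Tead2 -11 kb at the Kash5 promoter, Tead2 -4 kb at the Dkkl1 promoter and Tead2 +19 kb in an untranslated exon of Cd37.

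The start regions of Tead3 and Tead4 were each open in 27 libraries. Tead3 -25 kb (chr17:28594235-28595031, intergenic, with an AP-1 motif) was open in 29 libraries. Tead4 +18 kb (chr6:128259088-128259748, intron), printed above with its TEAD motif, was among the strongest member regions, at 18.1, 14.4 and 18.6 in Rxra cKO corpses, 13.3, 12.8, 14.2 and 14.6 in BEL corpses and 16.7, 15.8, 20.5 and 23.2 in WT corpses. In CatVII HFSCs it had 5.63, 12.9 and 15.2 in CatVII Rxra cKO and 10.5, 7.38, 6.12 and 8.27 in CatVII Rxra WT. It was also the 1 TEAD motif region printed here with a peak in medium (8.42 in 1 Rxra cKO medium library).

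Other Tead4 regions differed by cell state. Tead4 -41 kb, at an untranslated exon of the neighbouring gene Tulp3, was found in all 11 corpse cultures (5.11 to 7.85) and in no in vivo library. Tead4 +4 kb (chr6:128273038-128274093, intron), with its TEAD motif near the edge of the window, was found in all 3 CatVII Rxra cKO libraries (6.12, 6.87 and 11.7) and all 4 CatVII Rxra WT libraries (6.21, 5.80, 5.34 and 4.85), in none of the 7 cultures with vehicle corpses, and in all 4 BEL corpse cultures at low height (3.01, 3.68, 3.15 and 3.18).

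**Figure D2:**
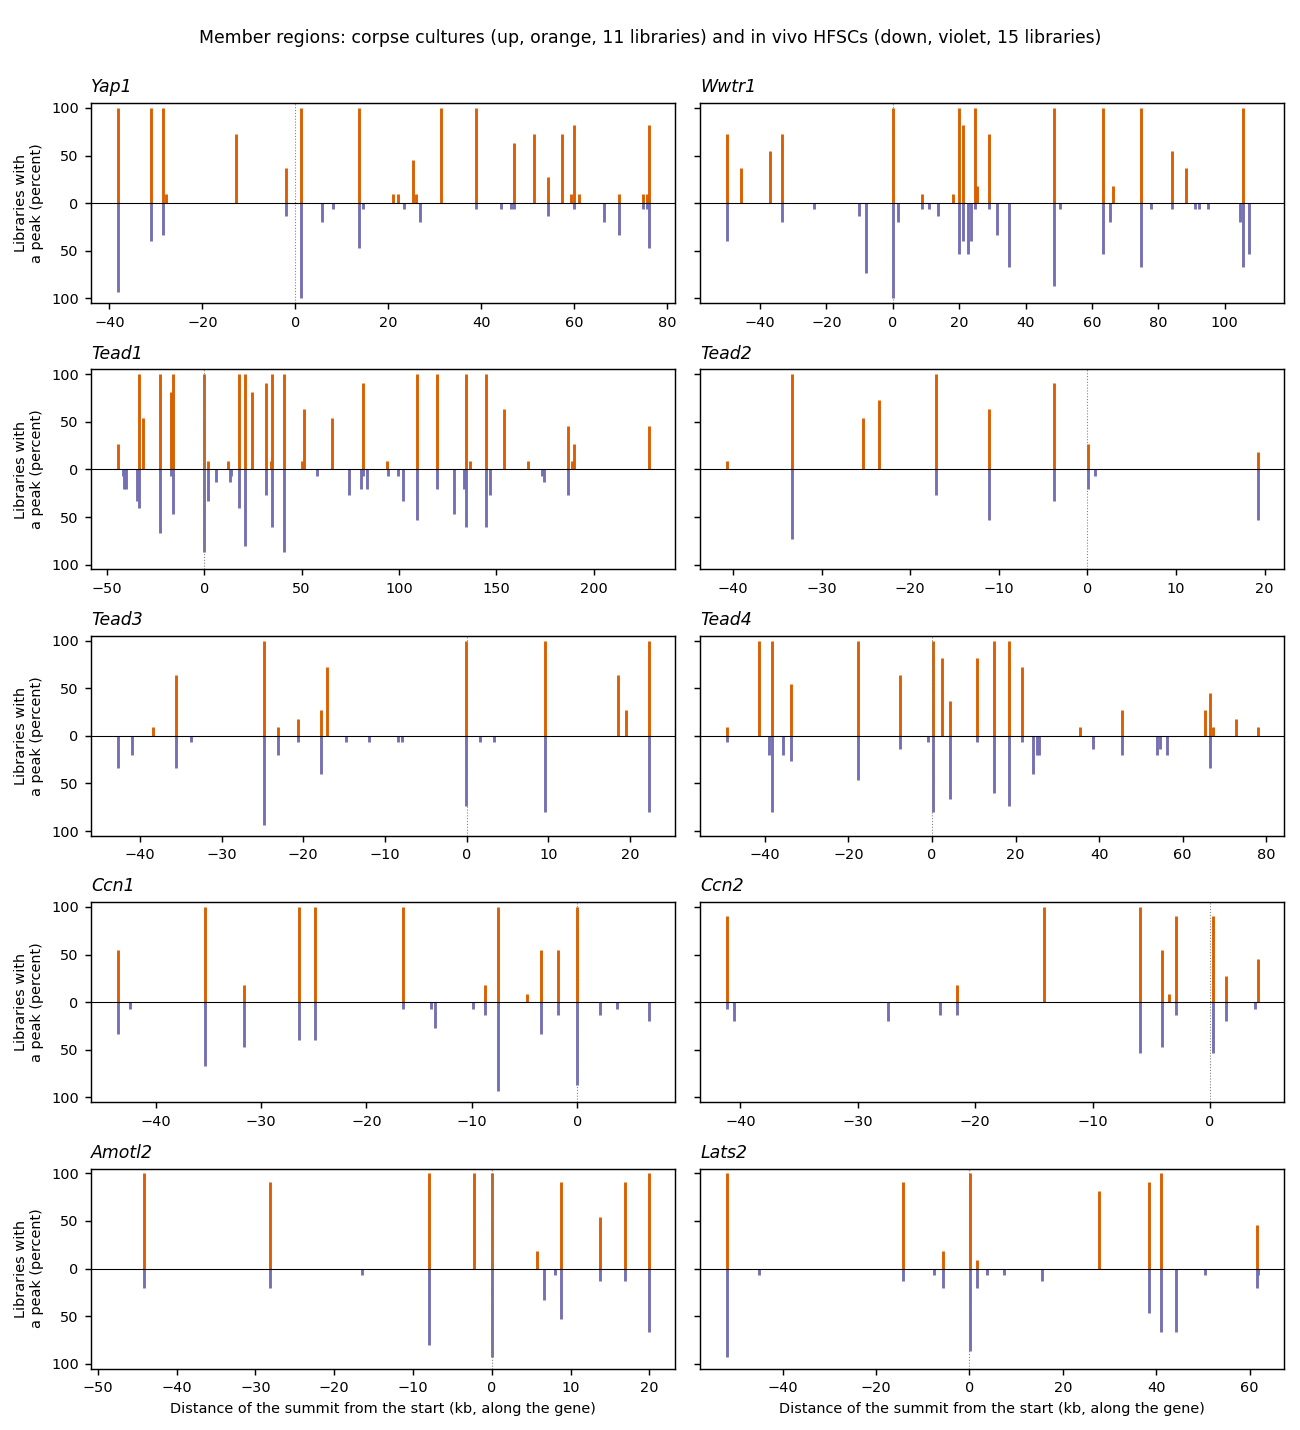
Share of libraries with a peak (percent) at each member region against the distance of its summit from the start of the gene (kb, along the gene), for the 11 corpse cultures (up, orange) and the 15 in vivo libraries (down, violet). Bars at 100 on the upper side with none below mark Yap1 +31 kb, Tead4 -41 kb, Ccn2 -14 kb and Amotl2 -2 kb, and Wwtr1 has downward bars with none above at -8, +23, +35 and +107 kb.

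Ccn1 and Ccn2 encode secreted matrix-associated proteins that are the usual readouts of YAP and TAZ activity. The Ccn1 start region (chr3:145354698-145356192), whose upstream part is printed above with its TEAD motif, was open in 28 libraries, at 8.54, 6.39 and 11 in Rxra cKO corpses, 7.28, 7.12, 8.14 and 8.23 in BEL corpses and 6.69, 9.11, 10.8 and 11.2 in WT corpses. In skin it had 6.37, 9.80 and 12.2 in CatVII Rxra cKO and 7.04, 6.94, 4.85 and 4.74 in CatVII Rxra WT. Corpse cultures and skin overlapped in both genotypes. Upstream, Ccn1 -17 kb (chr3:145371928-145372583), with AP-1 motifs printed above, reached 16.3, 9.80 and 18 in Rxra cKO corpses, 16, 15.4, 22.6 and 21.7 in BEL corpses and 5, 10.8, 21.2 and 19.7 in WT corpses. It was found in 1 in vivo library (CatVII Rxra WT, 5.64). Ccn1 -8 kb was the most widely open distal Ccn1 region, in 28 libraries of both kinds.

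The Ccn2 start region (chr10:24471162-24472148) was open in 22 libraries. It had 5.85, 4.03 and 6.86 in Rxra cKO corpses, 8.48, 9.07, 7.58 and 7.96 in BEL corpses, and 5.17, 7.10 and 6.95 in 3 of 4 WT corpses, against 4.74 and 7.19 in 2 of 3 CatVII Rxra cKO and 5.30, 6.66 and 5.67 in 3 of 4 CatVII Rxra WT libraries. All 4 BEL values lay above all 3 WT corpse values, which was not tested since 1 library had no peak. Ccn2 -14 kb (chr10:24456860-24457554, intergenic), printed above, was found in all 11 corpse cultures and in 3 of 4 AA LPC RA cultures. It had 21.3, 19 and 22.3 in Rxra cKO corpses, 12.9, 14.3, 15.4 and 14.2 in BEL corpses, 9.16, 12.9, 15.7 and 22.9 in WT corpses, 9.48 and 9.93 in Rxra cKO AA LPC RA and 13.3 in 1 Rxra WT AA LPC RA library. No in vivo or medium library had a peak there. The medium lists hold only 4144 to 5740 peaks, and the Rxra WT AA LPC RA lists hold 12989 and 89590. A missing peak in such short lists does not show a closed region. The Rxra cKO corpse values lay within the upper part of the WT corpse range, and this pair of groups was used to choose the genes, so nothing is read from it.

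Amotl2 encodes a junctional scaffold that binds YAP and is itself switched on by it. The Amotl2 start region was open in 30 libraries. Amotl2 -44 kb (chr9:102550362-102551221), with a TEAD and 2 AP-1 motifs printed above, had 18.3, 18.6 and 19.6 in Rxra cKO corpses, 17.6, 16.4, 19.1 and 18.9 in BEL corpses and 12.3, 17.5, 21.3 and 22.4 in WT corpses. In vivo the values were 6.49 in 1 of 3 CatVII Rxra cKO and 10.5 and 4.40 in 2 of 4 CatVII Rxra WT libraries. The values in culture were all above those in skin. Amotl2 -2 kb was a lower peak found in all 11 corpse cultures (3.57 to 7.85) and in no in vivo library.

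Lats2 encodes a Hippo kinase that inhibits YAP and TAZ and is also a target of them. The Lats2 start region (chr14:57982753-57984121, with a TEAD motif) was open in 27 libraries. Lats2 +44 kb (chr14:57939245-57939862, intron) was a skin region, at 9.22, 7.91 and 14.5 in CatVII Rxra cKO and 11.8, 11, 7.57 and 9.68 in CatVII Rxra WT, with no peak in any cultured library. Lats2 +41 kb, 3 kb away and with a TEAD motif, was open in 24 libraries of both kinds.

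Counted over all called peaks, the 4 regions found in all 11 corpse cultures and no in vivo library (Yap1 +31 kb, Tead4 -41 kb, Ccn2 -14 kb and Amotl2 -2 kb) were 3.85% of the 104 member regions found in 8 or more of these 26 libraries, against 9.57% of all 78230 such regions. No test of this share was made.

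Comparisons between groups used equal-length lists, in which each library entered with its strongest peaks up to the number in the shortest list of the comparison. A region was called specific to a group when every library of that group and no library of the other had a listed peak in it. Such a region can still have a called peak below the listed ranks in the other group. Beside each count of a main run stands the share of all callable regions of the genome (those listed in at least as many libraries as the smaller group has) with the same call. Counts from alternative runs, such as those with a library left out, and the count of calls common to both genotypes are given without that share. They are not read as a result about the members.

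In Rxra cKO HFSCs given corpses, set against CatVII Rxra cKO HFSCs, distal regions of Ccn1, Ccn2, Amotl2, Yap1 and Tead1 were listed in the cultures and not in skin, and regions of Wwtr1, Tead4 and Lats2 in skin and not in the cultures. Of 55 callable member regions in lists of 41317 peaks, 11 (20%) were specific to Rxra cKO corpses, against 28.1% of all regions, and 6 (10.9%) to CatVII Rxra cKO, against 12.5%. The second share was close to that of the genome, and neither difference was tested. The 11 were Ccn2 -14 kb (ranks 6879, 2468 and 7479 of 41317), Tead1 +120 kb (3379, 1358 and 5352), Amotl2 -44 kb (4200, 1208 and 4033), Amotl2 -28 kb, Yap1 +31 kb, Yap1 +39 kb, Lats2 -14 kb, Wwtr1 +63 kb and Ccn1 at -17, -25 and -26 kb, and the 6 were Lats2 +44 kb, Wwtr1 +35 kb, Wwtr1 -8 kb, Tead4 +15 kb, Tead4 +4 kb and Tead1 +35 kb. Over all called peaks, Tead1 +35 kb also had peaks in every Rxra cKO corpse culture (5.90, 6.64 and 4.99), as did Tead4 +15 kb (6.12, 5.98 and 4.65). Without CatVII Rxra cKO replicate 1, the shortest list, 27 regions were called (12 specific to corpses and 15 to CatVII), and over all called peaks 26.

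Heights at regions open in every library were compared with limma on quantile-normalised log2 fold enrichment. Regions in and near Tead1 were 9 of the 32 tested and 5 of the 8 that passed, 4 of them higher. Among 17751 regions, 32 were member regions, of which 6 were higher in Rxra cKO corpses, against 8.28% of all regions, and 2 lower, against 5.53%. Tead1 -23 kb was higher by 1.56 (SE 0.26, adjusted p = 0.000576 by limma), with fold enrichments of 20.8, 15.3 and 17.2 in Rxra cKO corpses, against 5.84, 3.93 and 6.49 in CatVII Rxra cKO. Ccn2 -6 kb was higher by 1.23 (SE 0.27, adjusted p = 0.00452 by limma), with 15.4, 6.97 and 14.3, against 3.76, 3.93 and 5.77. The TEAD motif region Tead1 +41 kb was higher by 0.91 (SE 0.20, adjusted p = 0.00465 by limma), and Ccn1 -35 kb, Tead1 +145 kb and Tead1 +135 kb by 0.82, 0.74 and 0.84. Tead1 +35 kb was lower by 1.16 (log2 change -1.16, SE 0.26, adjusted p = 0.00503 by limma), and Lats2 -52 kb, the promoter of the neighbouring gene Sap18, had -0.80 (SE 0.26, adjusted p = 0.0416 by limma). The median change was 0.0422 over the 32 member regions, against -0.0371 over all. The calls numbered 4 without Rxra cKO corpses replicate 1 and 5 without replicate 3. Among libraries tagged NonPhago (chosen after seeing the data) 1 region, Tead1 -23 kb, was called.

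The same comparison in Rxra WT HFSCs, corpses against CatVII, gave 5 of 64 callable regions (7.81%) specific to WT corpses in lists of 43758 peaks, against 21.6% of all regions, and 8 (12.5%) specific to CatVII Rxra WT, against 13.7%. In culture these were Ccn2 -14 kb, Yap1 +31 kb, Yap1 +39 kb, Tead1 -33 kb and Tead1 +24 kb, and in skin Lats2 +44 kb, Wwtr1 at +35, +23 and -8 kb, Tead4 +4 kb, Tead2 -11 kb, Tead2 +19 kb and Tead1 +128 kb. In both genotypes 7 regions had the same call, 3 for corpses (Ccn2 -14 kb, Yap1 +31 kb and Yap1 +39 kb) and 4 for CatVII (Lats2 +44 kb, Wwtr1 +35 kb, Wwtr1 -8 kb and Tead4 +4 kb). The share of all regions with the same call in both genotypes is not given, so this count is not read as a result about the members. Over all called peaks, Tead1 -33 kb also had peaks in some CatVII Rxra WT libraries (8.25, 4.26 and 4.96). Tead2 -11 kb also had peaks in some WT corpse cultures (5.42 and 10.45). Without CatVII Rxra WT replicate 1 the calls numbered 26 (9 and 17).

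By limma, among 19559 regions, 6 of 37 member regions were higher in WT corpses, against 8.61% of all regions, and 4 were lower, against 6.27%. Wwtr1 +20 kb was higher by 1.19 (SE 0.21, adjusted p = 0.000942 by limma), with fold enrichments of 15.4, 12.7, 15.5 and 19.5 in WT corpses, against 4.11, 6.79, 4.94 and 6.65 in CatVII Rxra WT. Tead4 +18 kb was higher by 0.89 (SE 0.20, adjusted p = 0.0045 by limma) and Tead1 -23 kb by 0.85 (SE 0.20, adjusted p = 0.00628 by limma), and Tead1 +109 kb, +135 kb and +41 kb by 0.82, 0.75 and 0.58. TEAD genes held 17 of the 37 regions tested, of which 5 were higher and 2 lower, and Tead1 -23, +41 and +135 kb were higher in corpse cultures of both genotypes. Lats2 -52 kb (the Sap18 promoter) had a log2 change of -0.95 (SE 0.22, adjusted p = 0.00645 by limma), Tead1 +35 kb -0.89 (SE 0.20, adjusted p = 0.00577 by limma), Tead4 +15 kb -0.86 (SE 0.22, adjusted p = 0.0126 by limma) and Amotl2 -8 kb -0.52 (SE 0.17, adjusted p = 0.0456 by limma). The median change was 0.157 over member regions, against -0.0261 over all. Without CatVII Rxra WT replicate 1, 16 regions were called, and among libraries tagged NonPhago 5 were, with Tead1 -23, +41, +135 and +35 kb and Tead4 +15 kb no longer past the threshold.

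Listed peaks were also counted per gene window, and no gene passed after adjustment over all genes. In Rxra cKO HFSCs, Yap1 had 5, 6 and 4 listed peaks in corpse cultures, against 3, 2 and 3 in CatVII. Tead3 had 4, 4 and 4, against 5, 5 and 6, and Tead4 had 4, 5 and 4, against 6, 6 and 7. These 3 of 10 genes did not overlap between groups, against 25.9% of all genes, and the exact permutation test gave p = 0.1 each, the smallest that 3 against 3 allows (adjusted p = 0.386 over all genes). In Rxra WT HFSCs, Wwtr1 had 4, 8, 7 and 8 in corpse cultures, against 11, 15, 17 and 13 in CatVII. Tead2 had 2 in each corpse culture, against 3, 5, 4 and 5, Tead3 had 3, 4, 4 and 4, against 6, 8, 7 and 7, and Lats2 had 1, 4, 3 and 2, against 6, 5, 5 and 5. These 4 genes were all lower in corpse cultures, against 23.6% of all genes that did not overlap in either direction, with exact permutation p = 0.0286 each, the smallest that 4 against 4 allows (adjusted p = 0.121). Without CatVII Rxra WT replicate 1, 7 genes did not overlap, and without Rxra cKO corpses replicate 1 6 genes, without CatVII Rxra cKO replicate 1 or 3 5 genes. Other values moved with these comparisons: the immune starts Csf1r and Laptm5, 2 of the 5 immune genes checked, had peaks in all 4 WT corpse cultures and in 0 of 4 CatVII Rxra WT libraries, and immune starts numbered 1 to 2 in Rxra cKO corpses, against 0 to 1 in CatVII Rxra cKO. Endothelial starts numbered 3 of 4 in each Rxra cKO corpse culture, against 1 to 2 in CatVII Rxra cKO, and 1 to 2 in both Rxra WT groups, and Pecam1 had a peak in all these corpse cultures and in no CatVII library. Fibroblast starts numbered 2 of 7 in each of these corpse cultures, against 0 to 4 in CatVII Rxra cKO and 2 to 3 in CatVII Rxra WT. Their part in the results was not tested.

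**Figure D3:**
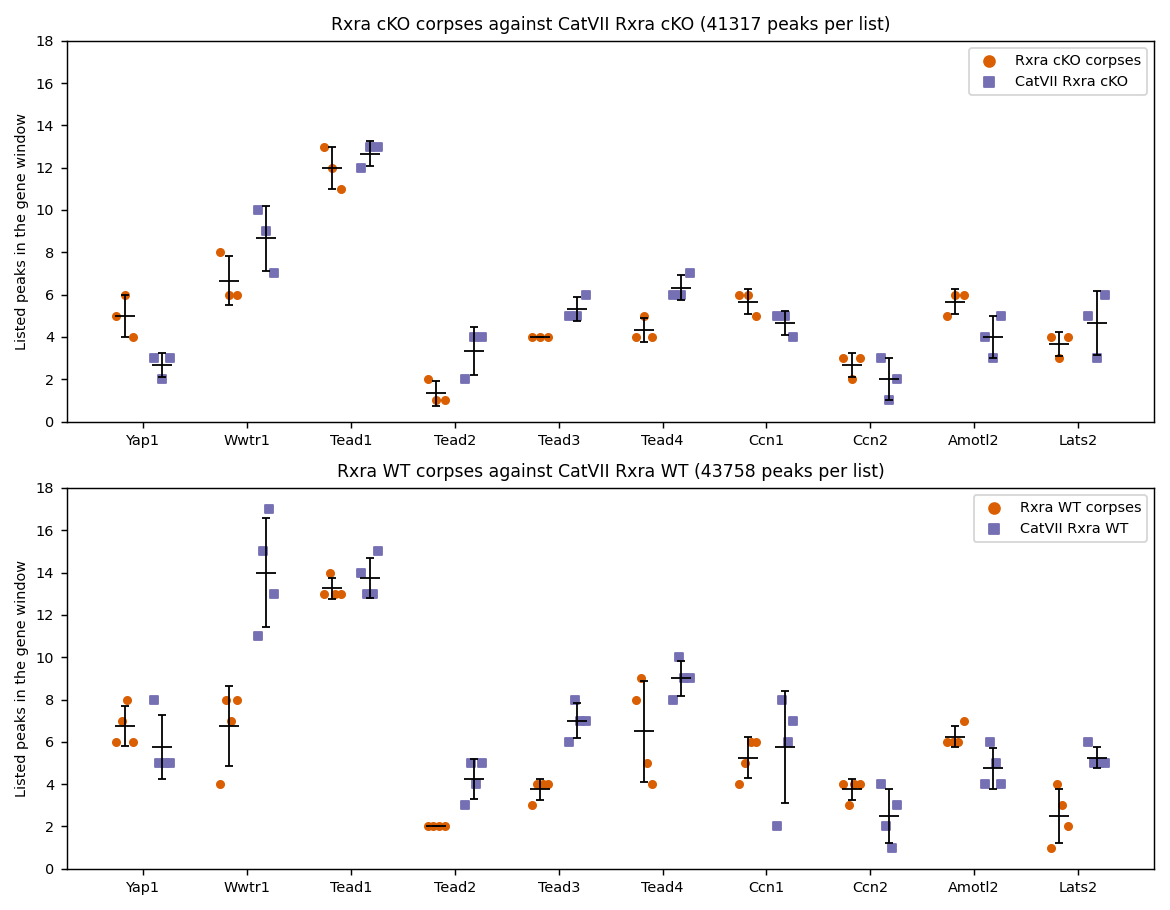
Listed peaks in the window of each of the 10 genes in lists of equal length, for Rxra cKO corpses and CatVII Rxra cKO (upper plot) and for Rxra WT corpses and CatVII Rxra WT (lower plot). Points are libraries, lines are means and bars SD. Wwtr1, Tead2, Tead3 and Lats2 have fewer peaks in every Rxra WT corpse culture than in every CatVII Rxra WT library, and Yap1 has more in every Rxra cKO corpse culture than in every CatVII Rxra cKO library.

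Other genes of the pathway had regions specific to corpse cultures at close to the genome's rate. Of 130 callable regions of 20 regulators, 38 at 14 genes (29.2%, against 28.1% of all regions) were specific to Rxra cKO corpses, 7 of them at Ptpn14, and 10 at 8 genes (7.69%, against 12.5%) to CatVII Rxra cKO. In Rxra WT, 32 of 145 at 15 genes (22.1%, against 21.6%) were specific to corpses and 7 at 6 genes (4.83%, against 13.7%) to CatVII. Of 100 callable regions of 16 further targets, 31 at 10 genes (31%) were specific to Rxra cKO corpses, 12 of them at Rbms3, and 9 at 5 genes (9%) to CatVII Rxra cKO. In Rxra WT, 23 of 106 at 7 genes (21.7%) were specific to corpses and 14 at 4 genes (13.2%) to CatVII. Over all regions, the TEAD motif was found in 16.5% of those specific to Rxra cKO corpses, against 7.11% of those specific to CatVII Rxra cKO, and in 13.9% of those specific to WT corpses, against 7.87% of those specific to CatVII Rxra WT. The AP-1 motif, which did not choose the genes, was found in 49.1% of regions specific to Rxra cKO corpses, against 10.9% for CatVII Rxra cKO, and in 50.6% of those specific to WT corpses, against 12.3% for CatVII Rxra WT. The TEAD shares are a description, since this motif in Rxra cKO corpse libraries chose the genes.

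BEL treatment of the corpses was compared with vehicle corpses in Rxra WT HFSCs. In lists of 63739 peaks, 5 of 81 callable member regions (6.17%) were specific to BEL corpses, against 2.26% of all regions, and 0 to WT corpses, against 0.729%. The 5 were Tead4 +4 kb, Tead4 -8 kb, Tead3 +19 kb (an untranslated exon of Tead3), Yap1 -13 kb and Amotl2 +17 kb. They stood low in the lists, at median ranks of 39779 to 55818.5 in BEL corpses, none of them was specific in lists 2 times shorter, where 1 other region was, and over all called peaks Tead4 +4 kb was the 1 of them that had no peak in any WT corpse culture. Peaks were at least 144 bp long in BEL corpse lists and at least 60 to 104 bp long in WT corpse lists, and the part of this in the result was not tested.

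Peak heights after BEL changed at 3 of 58 member regions by limma. The Lats2 start region rose by 0.77 (SE 0.19, adjusted p = 0.0231 by limma), with fold enrichments of 12, 11.9, 15.6 and 15.4 in BEL corpses, against 4.16, 7.45, 12.8 and 13 in WT corpses. On the normalised log2 scale these were 3.65, 3.77, 3.94 and 3.79, against 2.40, 3.03, 3.38 and 3.28, and did not overlap. Ccn1 -35 kb rose by 0.35 (SE 0.10, adjusted p = 0.0406 by limma). The TEAD motif region Tead4 +18 kb had a change of -0.37 (SE 0.11, adjusted p = 0.0421 by limma), with 13.3, 12.8, 14.2 and 14.6, against 16.7, 15.8, 20.5 and 23.2. These 2 higher and 1 lower regions stood against 4.63% higher and 2.99% lower of all 42500 regions, and the median change was 0.0199 over member regions, against -0.00719 over all. The values above come from an unpaired fit. With the replicate number as a block, 6 member regions passed, 5 of them higher. Deviations correlated in every pair of the same number, but only 2 of 4 BEL libraries correlated most with their own number. No member region passed when any 1 of the 4 BEL libraries was left out, 1 passed without WT corpses replicate 1 or 4, 6 passed without replicate 3, and 0 passed among libraries tagged NonPhago or among those tagged Phago. No gene's window counts separated the groups, against 7.21% of all genes, and 1 gene did without BEL corpses replicate 1, BEL corpses replicate 2 or WT corpses replicate 2.

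**Figure D4:**
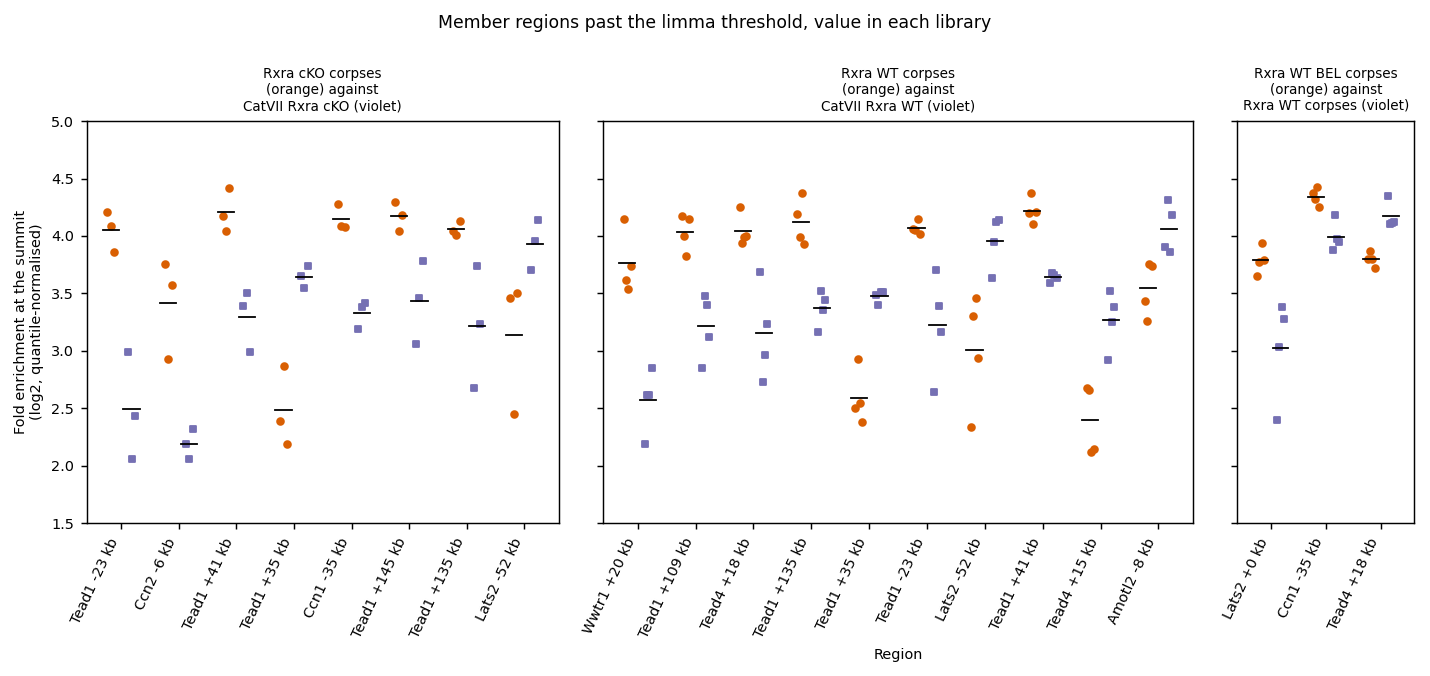
Normalised log2 fold enrichment in each library (points) and mean (line) at the member regions past the limma threshold, for Rxra cKO corpses against CatVII Rxra cKO, Rxra WT corpses against CatVII Rxra WT, and Rxra WT BEL corpses against Rxra WT corpses. Tead1 -23 kb and Tead1 +41 kb are higher in every corpse culture than in every CatVII library of the same genotype, and Lats2 +0 kb lies at 3.65 to 3.94 in BEL corpses, against 2.40 to 3.38 in WT corpses.

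Corpses were also compared with medium in Rxra WT HFSCs, which the 2 short medium lists limit to the strongest 4812 peaks of each library. Of 11 callable member regions, 3 (27.3%) were specific to WT corpses, against 20.7% of all regions, and 1 (9.09%) to medium, against 11.4%. The 3 were the TEAD motif regions Tead4 +18 kb (ranks 703, 1237, 250 and 353) and Tead1 +41 kb (1596, 587, 812 and 445), and Amotl2 +20 kb (2817, 2680, 2516 and 1325). The medium region, Wwtr1 +14 kb (ranks 2256 and 510), consists of sequence found at 8501 other places in the genome. Tead1 had 5, 4, 6 and 2 listed peaks in WT corpses, against 0 and 1 in medium (exact permutation p = 0.133, adjusted p = 0.685), and Tead4 had 1, 2, 1 and 1, against 0 and 0 (exact permutation p = 0.0667, the smallest this design allows, adjusted p = 0.418). These 2 of 10 genes stood against 17.8% of all genes. No member region was open in every library of both groups, so limma, which called 12.2% of 704 regions higher and 10.5% lower, had no member region to test. HFSC and basal marker starts had peaks for 7 to 9 of 10 genes in WT corpses and 0 to 2 in medium, and chromosomes 1 to 3 held 20.9 to 21.6% of the peaks in WT corpses and 33.9 to 39.6% in medium. Their part in the result was not tested. Without medium replicate 3, 8 regions were group-specific, and over all called peaks 70. Full lists hold 72225 to 114726 peaks in WT corpses and 4841 to 5740 in medium. Both counts stand without the share of all regions and are not read as a result about the members.

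Between the Rxra genotypes in CatVII skin, no member region and no gene's window count passed a test after adjustment. All CatVII Rxra cKO libraries carry the stored tag P42, while 3 of 4 CatVII Rxra WT libraries carry P37. Genotype and tag can therefore not be fully told apart in this comparison. In lists of 41317 peaks, 0 of 64 callable member regions were specific to CatVII Rxra cKO, against 0.665% of all regions, and 1, Yap1 +14 kb, to CatVII Rxra WT (ranks 29836, 27883, 17856 and 22427), against 1.85%. Yap1 had 3, 2 and 3 listed peaks in CatVII Rxra cKO, against 7, 5, 5 and 5 in CatVII Rxra WT, and Tead4 had 6, 6 and 7, against 8, 9, 9 and 9 (exact permutation p = 0.0286 each, the smallest this design allows, adjusted p = 0.761). These 2 of 10 genes stood against 4.73% of all genes, and there were 0 in lists 2 times shorter and 1 with a window of 10 kb upstream. By limma 0 of 34 member regions passed, against 0% higher and 0.00494% lower of all 20239 regions, and 2 had an unadjusted p under 0.05: Tead1 -23 kb (log2 change -0.71, SE 0.29, adjusted p = 0.347 by limma) and the Ccn1 start (0.57, SE 0.27, adjusted p = 0.428 by limma). The group-specific count was 10 without CatVII Rxra cKO replicate 1, 5 without CatVII Rxra WT replicate 1, 2 without CatVII Rxra cKO replicate 2 or 3 or CatVII Rxra WT replicate 4, and 13 among libraries with the tag P42, which leave 1 CatVII Rxra WT library. The count of genes was 4 without CatVII Rxra WT replicate 1. CatVII Rxra cKO replicates 2 and 3 carry different mouse numbers in the labels but the same number in the stored peak names. Whether they share a mouse is not known, and if they do this arm holds 2 mice and the p-values above are too small.

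Late catagen was compared with late anagen in wild type HFSCs, in lists of 8223 peaks. Of 21 callable member regions, 1 was specific to CatVII, Yap1 -38 kb (ranks 2682 to 4634), against 4.92% of all regions, and 0 to AnaVI, against 9.55%. This region is the promoter of Cfap300 and not of Yap1. It was not absent in anagen: over all called peaks, AnaVI replicate 2 had a fold enrichment of 8.88 there. CatVII wild type libraries had 6.16 to 12.5, so the call rests on the equal-length lists. Yap1 had 2, 2, 2, 2, 2 and 3 listed peaks in CatVII, against 0 and 1 in AnaVI (exact permutation p = 0.0357, the smallest this design allows, adjusted p = 0.399), and was the 1 gene of 10 that did not overlap, against 10.2% of all genes. By limma 0 of 2 member regions passed and 0 had an unadjusted p under 0.05, against 1.48% higher and 0.549% lower of all 2369 regions. The group-specific count was 6 without CatVII wild type replicate 3, 2 without CatVII wild type replicate 2 or 5, and 3 and 4 without AnaVI replicate 1 and 2, and 2 genes did not overlap without CatVII wild type replicate 3 or AnaVI replicate 2.

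Rxra cKO and Rxra WT HFSCs given corpses are described without a test, because this contrast chose the genes. In lists of 72047 peaks, 1 of 88 callable member regions (1.14%) was specific to Rxra cKO corpses, where the share of all regions was 3.63%, and 2 (2.27%) to WT corpses, where it was 1.79%. Wwtr1 -46 kb had fold enrichments of 11.1, 8.06 and 9.51 in Rxra cKO corpses and a peak of 4.35 in 1 of 4 WT corpse cultures, below the listed ranks. Tead3 -17 kb had 4.76 in 1 of 3 Rxra cKO corpses, against 4.16, 5.41, 9.05 and 9.05 in WT corpses, and Yap1 +51 kb had 5.81 in 1 of 3, against 5.83, 5.14, 7.43 and 9.50. Listed peaks numbered 7, 10 and 7 in Rxra cKO corpses, against 13, 12, 12 and 11 in WT corpses, at Yap1, 5, 4 and 4, against 6 in each, at Tead3, and 8, 8 and 7, against 11, 9, 11 and 10, at Tead4, where 8.7% of all genes did not overlap. The group-specific count was 5 without Rxra cKO corpses replicate 2 or 3 or WT corpses replicate 4.

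**Figure D5:**
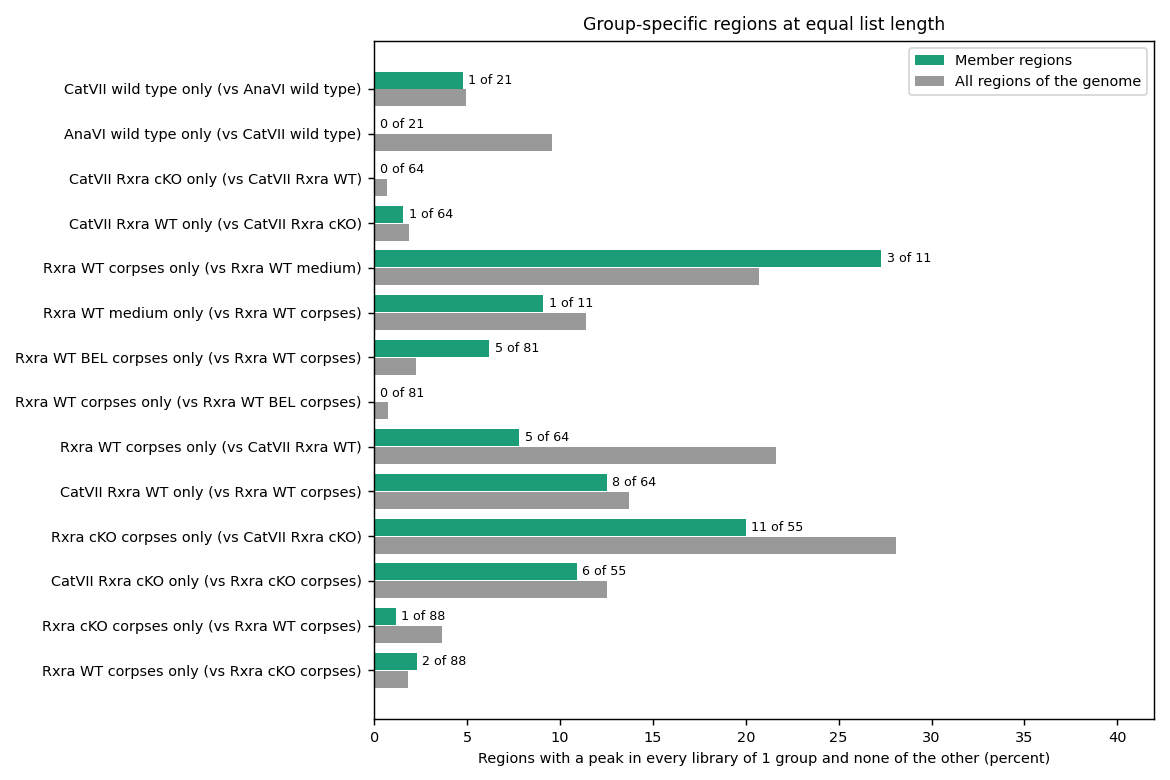
Percent of callable regions with a listed peak in every library of one group and none of the other, for the member regions (green, with counts) and for all regions of the genome (grey), in both directions of the 7 comparisons. Set against CatVII, corpse groups have a member share below the genome's (20% against 28.1% in Rxra cKO, 7.81% against 21.6% in Rxra WT). The CatVII side of these comparisons is close to the genome's share (10.9% against 12.5%, 12.5% against 13.7%). The member share is above it for BEL corpses (5 of 81) and, on few regions, for WT corpses against medium (3 of 11). In the CatVII Rxra and AnaVI comparisons it is close to or below the genome's. These shares were not tested.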

How the data were processed

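ATAC-seq peak lists of 34 libraries in 11 groups were used as deposited. For each library the authors used BWA-MEM 0.7.18 for alignment to mm39, SAMtools 1.17 to discard duplicates and MACS3 3.0.0 to call peaks. Each deposited peak carries a fold enrichment (a ratio over local background at the summit) and −log10 p and q values. The lists hold no read counts, so depth is unknown and only the number of peaks per library stands for it. Peaks sharing 1 bp were joined into regions and annotated with GENCODE on GRCm39, the same build. Ranks followed −log10 p. Exact two-sided permutation tests compared gene window counts over libraries, with Benjamini-Hochberg adjustment over all genes with a listed peak. limma 3.58.1 (R 4.3.3, with trend) compared quantile-normalised log2 fold enrichment at regions with a peak in every library of both groups, adjusted over all such regions at a threshold of 0.05. Calculations used Python 3.11.15 with pandas 2.3.3, numpy 2.4.6, scipy 1.17.1 and pysam 0.24.0, and scripts were tested on simulated data. All 10 member genes are described, and the regions named by rule are each gene's start region, group-specific regions (at most 3 per gene and direction, by median rank), regions called by limma (all if at most 6, otherwise the 3 largest changes each way) and the most widely found region away from promoters. Other regions named were chosen after their values were seen. The members and gene lists were chosen with earlier results of these data known. The main limma runs were unpaired, and the replicate number entered only in the block alternative. As a check for pairing, the deviations of every pair of the same number had to correlate above 0.1. This held for BEL and WT corpse libraries (0.17, 0.20, 0.15 and 0.34) and not for the other 5 comparisons tested by limma. Even so, only 2 of 4 BEL libraries correlated most with the WT corpse library of their own number. Alternatives were shorter or full lists, a 10 kb window, left-out libraries, the replicate block and libraries of 1 stored tag.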

Additional observations from a re-analysis of the deposited data

Results flagged for a closer look

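Single libraries stood apart from their group in listed peaks per gene window by Dixon's criterion in the cases below. On small whole-number counts the criterion marks any library that alone differs from equal others, so the usual chance rate of about 1 in 20 does not apply, and lists of different lengths share libraries, so the cases are not independent. They are given as values only. With lists of 8223 peaks in CatVII wild type, Yap1 had 3 in replicate 6, Tead2 had 1 in replicate 5 and Tead3 had 3 in replicate 5. With lists of 41317 peaks, CatVII Rxra WT replicate 1 had 7 at Yap1, 8 at Tead4 and 6 at Lats2, and with 43758 peaks it had 8 at Yap1 and 6 at Lats2. With lists of 4812 peaks in WT corpses, Tead2 had 1 in replicate 3 and Tead4 had 2 in replicate 2.

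With lists of 63739 peaks, BEL corpses had 16 at Tead1 and 5 at Lats2 in replicate 1, 7 at Ccn1 in replicate 2 and 9 at Tead4 in replicate 3, and WT corpses replicate 2 had 5 at Tead3 and 6 at Ccn2. With lists of 43758 peaks, WT corpses had 3 at Tead3 in replicate 1, 14 at Tead1 and 3 at Ccn2 in replicate 2, and 7 at Amotl2 in replicate 4. With lists of 72047 peaks, WT corpses replicate 2 had 7 at Ccn2 and 6 at Lats2. At Tead4 +18 kb, WT corpses replicate 1 stood at a normalised log2 fold enrichment of 4.35, against 4.10, 4.11 and 4.12 in the others.

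Outside the comparisons of the report, in lists of 4111 peaks, Rxra WT AA LPC RA libraries had 7 and 7 listed peaks in the 10 gene windows, against 1 and 3 in Rxra WT medium. Rxra cKO AA LPC RA libraries had 8 and 6, against 6 and 5 in Rxra cKO medium. The share of all genes that differ in this way is not given, so these counts stand as values only. Chromosomes 1 to 3 held 33.9 to 39.6% of the peaks in Rxra WT medium and 21 to 25.8% in Rxra WT AA LPC RA, and the part of this was not tested.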

How the results depend on the processing

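No named region changed direction in any alternative run. Counts were compared only by size. Without CatVII Rxra cKO replicate 1, more member regions were specific to CatVII than to Rxra cKO corpses, the reverse of the main run. This stands without the share of all regions and is not read as a change at the members. Joining summits within 250 bp and median centring left every count equal or close to that of the main run. With median centring, 2 of the log2 changes at named regions no longer passed the threshold. In lists 2 times shorter, group-specific member regions numbered 0 for CatVII against AnaVI, 0 for CatVII Rxra cKO against WT, 1 for BEL against WT corpses, 8 for WT corpses against CatVII and 10 for Rxra cKO corpses against CatVII. Over all called peaks they numbered 3 for CatVII against AnaVI, 2 for CatVII Rxra cKO against WT, 2 for BEL against WT corpses, 26 for Rxra cKO corpses against CatVII, 70 for WT corpses against medium and 1 for Rxra cKO against WT corpses. Genes without overlap numbered, in shorter lists, 0 for CatVII Rxra cKO against WT, 1 for WT corpses against medium, 2 for WT corpses against CatVII and 0 for Rxra cKO against WT corpses, and with a 10 kb window 0 for CatVII against AnaVI, 1 for CatVII Rxra cKO against WT and 1 for BEL against WT corpses. limma on lists of equal length called 5 member regions for Rxra cKO corpses against CatVII.

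Restriction by stored tag was chosen after seeing the data. Group-specific regions were then 13 (P42) and 2 (NonPhago) for CatVII Rxra cKO against WT, 11 (NonPhago) and 10 (Phago) for BEL against WT corpses and 11 and 20 for Rxra cKO against WT corpses. limma calls were 0 and 0 for BEL against WT corpses, and with NonPhago 5 for WT corpses against CatVII and 1 for Rxra cKO corpses against CatVII. These counts, and those of the other alternative runs, stand without the share of all regions or genes in the same run. They are not read as a change at the members, and the cause was not tested.

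With 1 library left out, group-specific regions ranged over 1 to 6 for CatVII against AnaVI, 1 to 10 for CatVII Rxra cKO against WT, 4 to 8 for WT corpses against medium, 5 to 7 for BEL against WT corpses, 13 to 26 for WT corpses against CatVII, 17 to 27 for Rxra cKO corpses against CatVII and 3 to 5 for Rxra cKO against WT corpses. In the same order, genes without overlap ranged over 1 to 2, 2 to 4, 2 to 3, 0 to 1, 4 to 7, 3 to 6 and 3 to 4. limma calls stayed at 0 in the first 3, and ranged over 0 to 6, 8 to 16 and 4 to 11 in the next 3.

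With the replicate number as a block, limma called 6 member regions for BEL against WT corpses. Replicates of the other comparisons shared only a number, and the block gave 0, 0 and 0 for the first 3, 10 for WT corpses against CatVII and 8 for Rxra cKO corpses against CatVII. The medium lists limit that comparison to strong peaks, and without read counts a region with no peak is not shown to be closed.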
